A study of Rattus norvegicus with 20 samples.

Results

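The rat major histocompatibility complex, named RT1, was followed in mesenteric artery through every array probe whose gene name begins with RT1- and through the probes of B2m, Cd74 and Ciita. These were 59 probes of 47 gene names, out of 30367 distinct probes of 26214 gene names on the array. There were 45 probes for 35 class I gene names, 11 probes for 9 class II gene names, and 1 probe each for B2m, Cd74 and Ciita. Of these, 41 of them (35 gene names) gave enough signal to be tested.

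Total RNA of the whole mesenteric artery was hybridised singly to 20 one-colour Agilent arrays, in 5 groups of 4 rats labelled as biological replicates. The spontaneously hypertensive rat (SHR/Izm) and its stroke-prone substrain (SHRSP/Izm) were left without operation. The normotensive Wistar-Kyoto rat (WKY/Izm) was either without operation or had renovascular hypertension induced, by the 2-kidney 1-clip operation (2K1C) or the 1-kidney 1-clip operation (1K1C), for 3 weeks. The labels give the 3 weeks for untreated WKY too, and have no such entry for SHR and SHRSP. All rats were labelled as 6 weeks old, and whether that is the age at operation or at sampling is not settled by the labels; sex was not given.

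Class I molecules are made of an RT1-encoded heavy chain and beta-2 microglobulin (B2m), and present peptides from the cytosol on nearly all nucleated cells. Class II molecules are pairs of an alpha and a beta chain that present peptides taken up from outside, mainly on B cells, dendritic cells and macrophages. The invariant chain Cd74 escorts new class II pairs, the DM pair exchanges its fragment for peptide and the DO pair restrains DM. Ciita is the coactivator that switches class II genes on. Rat class I genes are a large family of near-identical copies, the classical ones in the RT1-A region and the many others in the RT1-C/E, N, S, T and M regions.

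Levels below are log2 of the processed signal minus the 75th percentile of that array, so a difference of 1 is a doubling of signal. They compare arrays for a single probe, and do not rank one probe against another. For testing, 18899 probes were kept, those that the scanner software marked as above background in every rat of 1 group or more. Between 66.5% and 71.7% of the spots of an array were well above background, no spot was saturated, and arrays of a group correlated at 0.936 to 0.995. All 7 smooth muscle markers and all 7 endothelial markers of the lists used here were well above background on all 20 arrays, as fits the tissue label. The arrays lay on 3 slides, which held 2K1C alone, 1K1C with untreated WKY, and SHR with SHRSP.

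Several class I probes share so much sequence that 1 signal may come from several genes, which the oligonucleotides themselves show. In the kept probes of RT1-CE5, RT1-S2 and RT1-M6-1 the capitals mark a run of 26 bases common to all 3, in the part of the message that encodes the conserved immunoglobulin-like domain of the heavy chain. The last line is the other RT1-M6-1 probe, which lacks that run.
RT1-CE5: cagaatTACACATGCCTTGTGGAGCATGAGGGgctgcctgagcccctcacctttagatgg
RT1-S2: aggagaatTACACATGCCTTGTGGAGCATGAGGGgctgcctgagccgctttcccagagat
RT1-M6-1, kept: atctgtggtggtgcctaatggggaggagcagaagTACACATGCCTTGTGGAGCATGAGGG
RT1-M6-1, not kept: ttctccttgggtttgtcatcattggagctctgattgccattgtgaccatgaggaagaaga
The RT1-CE5 and RT1-S2 probes share an unbroken run of 43 bases. Of the RT1-M6-1 probes, the one with the shared run was above background on 20 of 20 arrays and the other on 0 of 20. On rn4, the build of the array's annotation, these lie on chromosome 20 from 3510942 to 3511001 (RT1-CE5), from 2795080 to 2795139 (RT1-S2), from 1660276 to 1660335 (RT1-M6-1, kept) and from 1660528 to 1660587 (RT1-M6-1, not kept).

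The pair of different genes with the most identical bases, 53 of 60 in an alignment without gaps, was RT1-A1, a classical class I gene, and RT1-CE11. Capitals mark their longest shared run, of 16 bases.
RT1-A1: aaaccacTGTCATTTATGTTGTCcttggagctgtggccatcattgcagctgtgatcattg
RT1-CE11: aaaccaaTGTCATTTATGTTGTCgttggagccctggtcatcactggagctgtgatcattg
Among the 31 kept class I probes, 19 shared a run of at least 15 bases with a probe of another RT1 gene (median 18, range 8 to 43), against 0 of the 14 class I probes that were not kept (median 11, range 7 to 14) and 0 of the 11 class II probes (median 9, range 7 to 10). The cut of 15 lies just above the 14 bases of the longest run in the probes not kept, so the 0 of 14 depends on it. By identical bases in an alignment without gaps the contrast was weaker. At least 36 were identical with another member probe in 18 of 31, 5 of 14 and 2 of 11 probes of these sets. Probes were compared with each other and not with whole messages, so a short run does not show that a probe is specific. Signals of the kept class I probes are therefore reported by probe, and could not be assigned to 1 gene where copies share sequence.

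Which members gave a signal differed by region. Of the 16 probes of RT1-CE genes 14 were kept, and of the 11 probes of the M region, whose genes are the most distant class I relatives, 2 were kept, RT1-M3-1 and the RT1-M6-1 probe with the shared run. Of the 18 probes not kept, 10 were not well above background on any array. These were the probes of RT1-M1-2, RT1-M1-4, RT1-M1-5 (both probes), RT1-M10-1, RT1-M4, RT1-M5, RT1-Ba, the dim RT1-M6-1 probe and 1 of the probes of RT1-Bb. The other 8 were well above background on 2 to 10 arrays (RT1-CE6, RT1-M2, RT1-T24-2, RT1-DOa, RT1-Ha, 1 probe of RT1-CE5 and 2 of RT1-T18). RT1-Ba and RT1-Bb encode the alpha and beta chains of the same class II molecule: the single RT1-Ba probe was above background on 0 arrays, and the RT1-Bb probes on 0 and on 20 arrays. In 4 genes (RT1-Bb, RT1-CE5, RT1-M6-1 and RT1-T18) a kept probe thus stood beside 1 or more that were not.

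**Figure D1:**
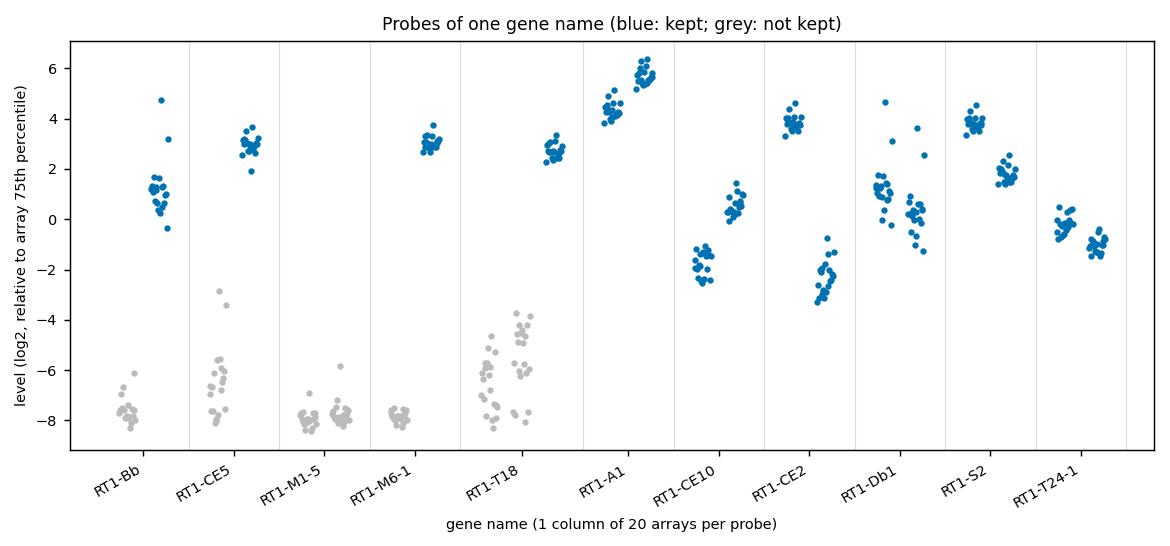
Level of each probe on the 20 arrays, as log2 signal relative to the array's 75th percentile, for the 11 gene names with more than 1 probe. Blue points are kept probes and grey points probes not kept; in RT1-Bb, RT1-CE5, RT1-M6-1 and RT1-T18 both kinds occur.

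For class I, the light chain B2m had levels of 4.81, 5.34, 5.09 and 5.05 in untreated WKY, 5.60, 5.72, 5.22 and 4.89 in 1K1C, 4.58, 5.19, 4.91 and 5.42 in 2K1C, 5.63, 4.95, 5.05 and 5.41 in SHR, and 5.05, 5.29, 5.24 and 5.0 in SHRSP. All groups overlapped. The difference from untreated WKY was 0.19 ± 0.21 (SE) in SHR, 0.07 ± 0.21 in SHRSP, -0.05 ± 0.21 in 2K1C and 0.29 ± 0.21 in 1K1C, with 95% intervals from -0.25 to 0.63, -0.37 to 0.51, -0.48 to 0.39 and -0.15 to 0.72.

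The classical heavy chain RT1-A1 was read by a pair of probes. The probe at chromosome 20 from 5059904 to 5059963 gave 5.55 ± 0.28 (SD, n = 4) in untreated WKY, 5.82 ± 0.40 in 1K1C, 5.67 ± 0.36 in 2K1C, 5.71 ± 0.43 in SHR and 5.69 ± 0.10 in SHRSP, and by array 5.17, 5.74, 5.5 and 5.8, then 6.02, 6.28, 5.55 and 5.42, then 5.34, 5.86, 5.38 and 6.08, then 6.36, 5.43, 5.52 and 5.54, then 5.59, 5.67, 5.67 and 5.83 in that order of groups. The probe at 5059134 to 5059193 gave 4.27 ± 0.33, 4.40 ± 0.38, 4.23 ± 0.32, 4.40 ± 0.50 and 4.33 ± 0.19. RT1-A2, the other classical gene measured, was at 1.36 ± 0.34, 1.51 ± 0.38, 1.41 ± 0.42, 1.49 ± 0.56 and 1.48 ± 0.20 in the same order. For each of the 3 probes the ranges of all 5 groups overlapped.

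The class I probes moved together from array to array within groups. In SHR, replicate 1 was the highest of its group for 30 of the 31 kept class I probes, while it was the highest for 35.5% of all kept probes, and the mean level of the class I probes there was 1.82 against 0.88 to 1.04 on the other SHR arrays. In 1K1C, replicate 2 was the highest for 24 of 31 (29.6% of all kept probes). In 2K1C and SHRSP, replicate 4 was the highest for 27 and 24 of 31 (31.7% and 22.2%). In untreated WKY, replicate 1 was the lowest for 25 of 31 (37.6%). The 11 measured macrophage markers averaged 1.36 on 1K1C replicate 2, where the 7 smooth muscle markers averaged 0.31, and 1.00 on SHR replicate 1, where smooth muscle markers averaged 2.33; elsewhere smooth muscle markers averaged 2.40 to 4.57. Macrophage and smooth muscle markers averaged 1.16 and 2.96 on 2K1C replicate 4, and 0.75 and 3.29 on SHRSP replicate 4. On untreated WKY replicate 1, where class I was low, they averaged -0.37 and 2.96, each the lowest mean in untreated WKY. The part of cell composition in these class I levels was not tested.

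A class I value went against its group. On 2K1C replicate 4 the RT1-CE5 probe shown above, which has a single spot, was at 1.92, below the 2.72, 2.98 and 2.91 of the other 2K1C arrays. On that array the RT1-S2 probe with which it shares the 43-base run was at 4.01, above the 3.52, 3.78 and 3.70 of the others.

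**Figure D2:**
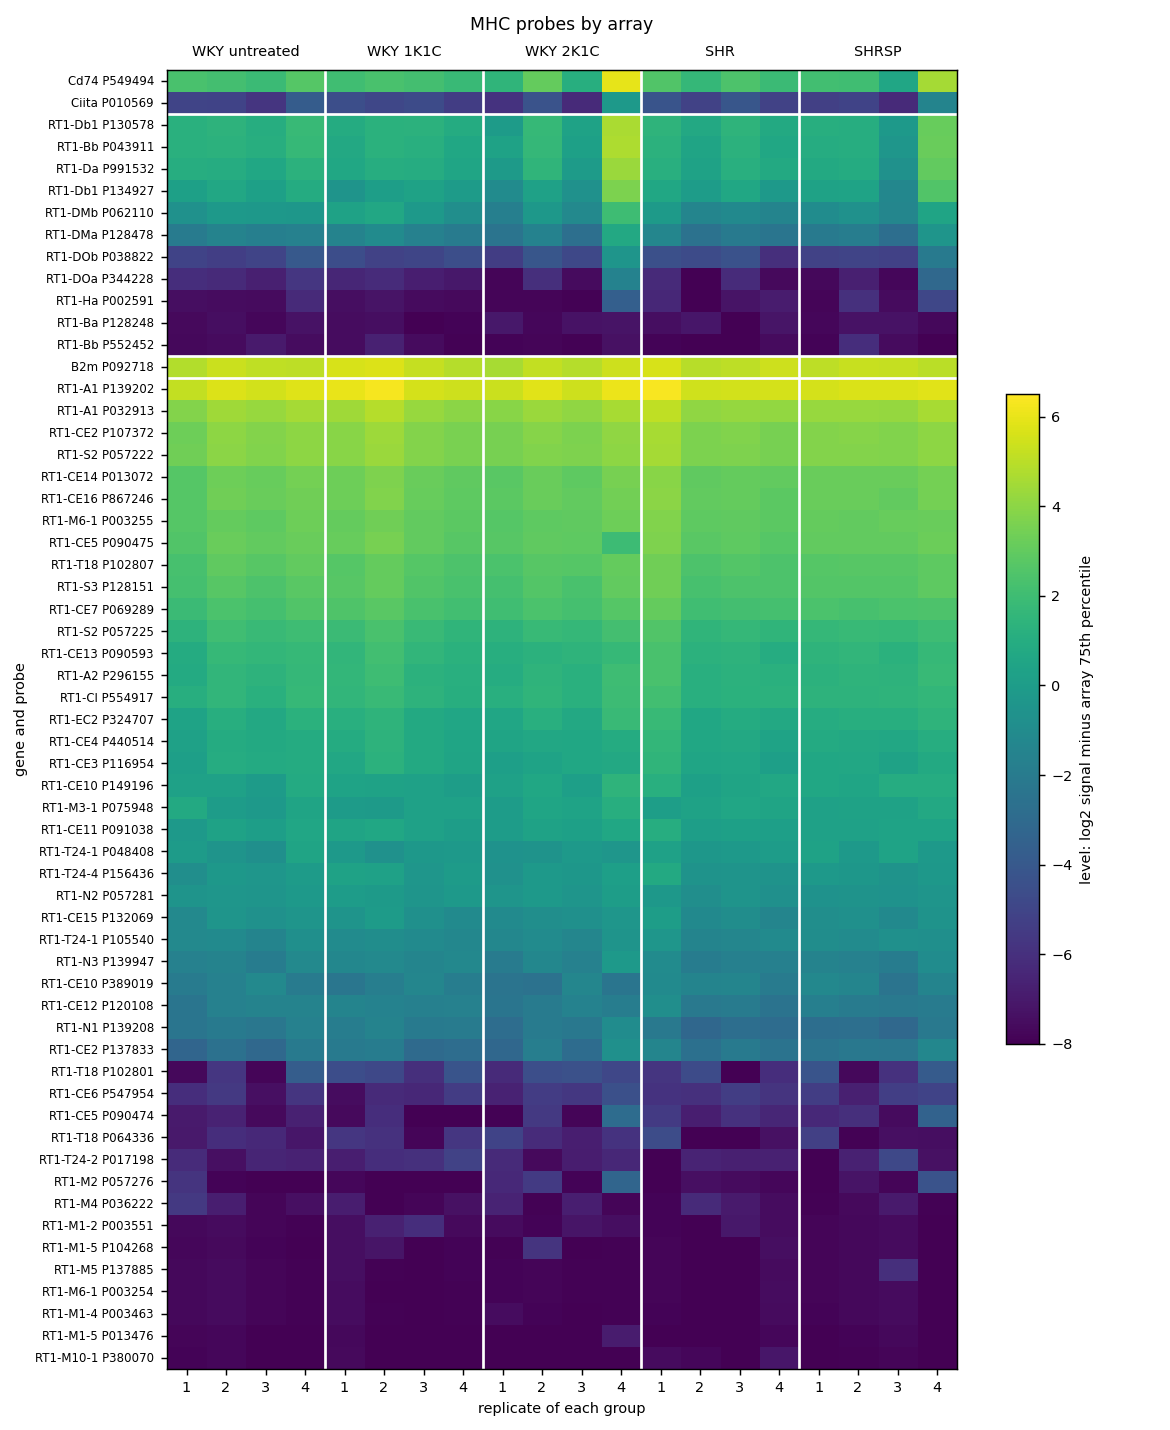
Levels of all 59 probes (rows; Cd74 and Ciita, class II, B2m and class I from top to bottom, separated by white lines) on the 20 arrays (columns, 4 per group), as log2 signal relative to the array's 75th percentile. The 4th columns of WKY 2K1C and SHRSP stand out in the class II rows, and the 1st column of SHR in the class I rows.

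For class II, 9 probes were kept: RT1-Bb, RT1-Da, RT1-Db1 (a pair of probes), RT1-DMa, RT1-DMb, RT1-DOb, Cd74 and Ciita. All 9 were highest of their group on 2K1C replicate 4 and on SHRSP replicate 4, while 31.7% and 22.2% of all kept probes were highest there. Replicate 4 was the highest for 7 of 9 in untreated WKY (30.1% of all kept probes), 1 in 1K1C (23.7%) and 0 in SHR (30.2%). The replicate number was also the column of the array on its slide, so the 2K1C and SHRSP arrays shared column 4. Cd74, the invariant chain, had levels of 2.32, 2.15, 1.91 and 2.70 in untreated WKY, 2.08, 2.34, 2.18 and 1.84 in 1K1C, 1.46, 3.06, 1.08 and 5.96 in 2K1C, 2.55, 1.68, 2.43 and 1.88 in SHR, and 2.09, 2.03, 0.57 and 4.53 in SHRSP. On 2K1C replicate 4 it was 17-fold above the mean of the other 2K1C arrays, and on SHRSP replicate 4 it was 7.82-fold above the mean of the other SHRSP arrays. All groups overlapped.

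The class II chains followed the same arrays. RT1-Da, the alpha chain of the rat counterpart of DR, was at 1.03, 0.95, 0.66 and 1.34 in untreated WKY, at -0.11, 1.51, -0.07 and 4.33 in 2K1C and at 0.82, 0.94, -0.65 and 2.99 in SHRSP. Its beta chain RT1-Db1, by the probe at chromosome 20 from 4672665 to 4672724, was at 1.23, 1.38, 1.03 and 1.76 in untreated WKY, at -0.04, 1.74, 0.37 and 4.66 in 2K1C and at 1.11, 1.05, -0.21 and 3.13 in SHRSP. The kept RT1-Bb probe was at 1.21, 1.33, 1.07 and 1.69, at 0.35, 1.65, 0.23 and 4.74, and at 0.98, 1.02, -0.36 and 3.21 in those groups. In SHR and 1K1C the 4 probes of these chains stayed within -0.51 to 1.43. In each of the chains, 2K1C replicate 2 was the 2nd highest of its group and SHRSP replicate 3 the lowest of its group.

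The peptide editors RT1-DMa and RT1-DMb and their modulator RT1-DOb did the same. RT1-DMa was at -2.42, -1.59, -2.68 and 0.74 in 2K1C, and RT1-DMb at -1.73, -0.25, -1.19 and 2.02. RT1-DOb was at -5.37, -4.10, -4.83 and -0.43 in 2K1C and at -5.12, -5.0, -5.18 and -2.05 in SHRSP. Its partner RT1-DOa was not kept; its probe was above background on 3 arrays, among them 2K1C replicate 4 (-1.57) and SHRSP replicate 4 (-3.08), against -7.78 to -6.05 on the other arrays of those groups. Ciita was at -5.87, -4.30, -6.28 and -0.21 in 2K1C and at -5.28, -5.11, -6.26 and -1.46 in SHRSP, at -5.01, -5.09, -5.74 and -3.80 in untreated WKY, at -4.53, -4.89, -4.71 and -5.39 in 1K1C and at -4.23, -5.15, -4.11 and -5.14 in SHR.

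Over the 9 probes, 2K1C replicate 4 lay 2.97 to 5.28 above the mean of the other 2K1C arrays (median 4.00), and SHRSP replicate 4 lay 1.44 to 4.09 above the mean of the other SHRSP arrays (median 2.67). The 31 class I probes lay -0.95 to 1.86 (median 0.52) and -0.40 to 0.98 (median 0.25) above them on these arrays. B2m was at 5.42 on 2K1C replicate 4, the highest of its group, and at 5.0 on SHRSP replicate 4, the lowest of its group. The class II values of 5.28 and 4.09 were those of Ciita. Its probe was well above background on only 2 of 4 arrays of 2K1C and 3 of 4 of SHRSP. That of RT1-DOb was so on 4 of 4 and 3 of 4, and such gaps from dim levels are not exact folds.

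**Figure D3:**
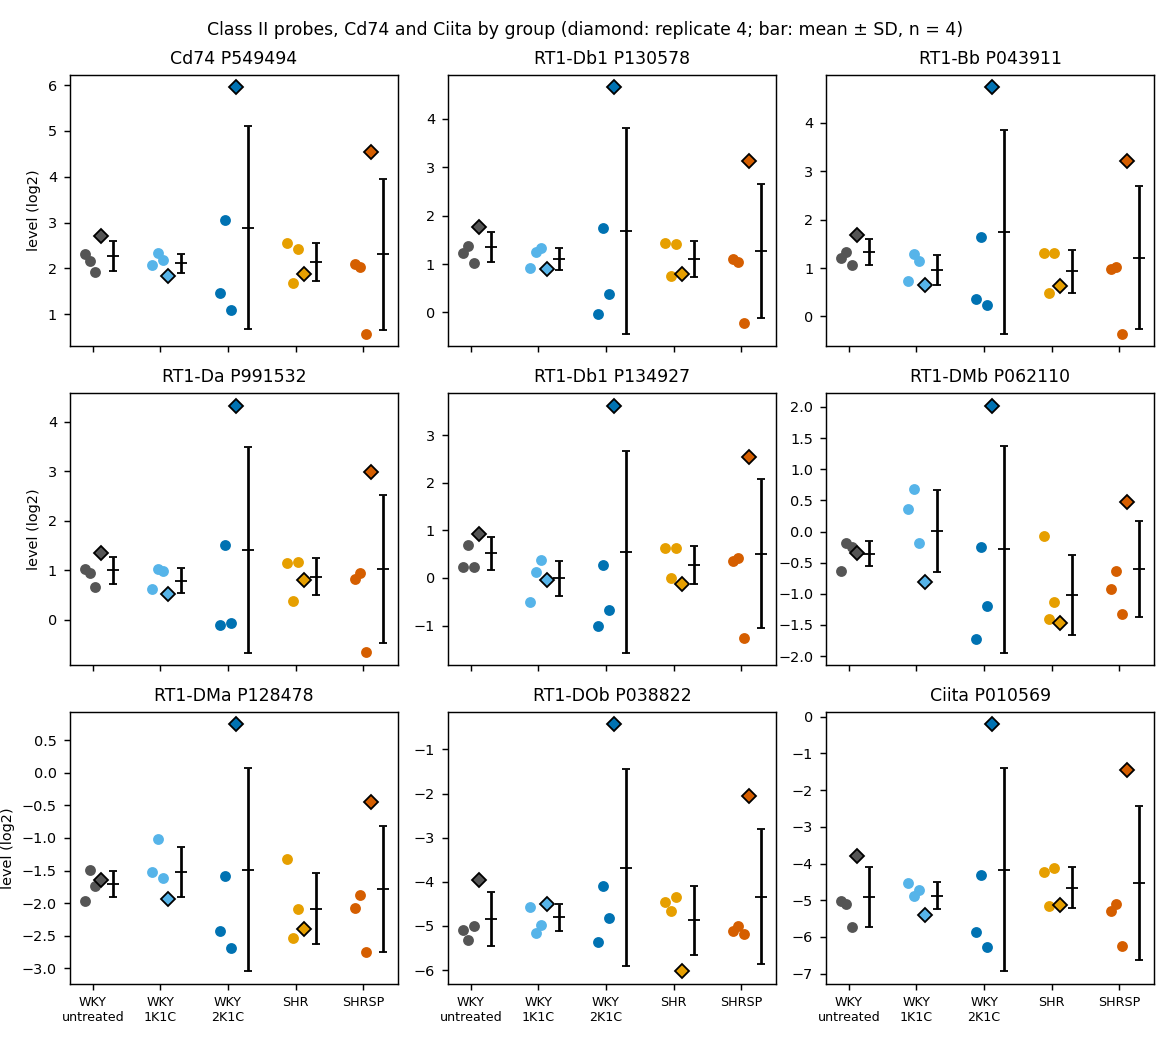
Level (log2 signal relative to the array's 75th percentile) of the 9 kept class II, Cd74 and Ciita probes by group; points are arrays, diamonds replicate 4, and bars the mean ± SD of 4 arrays. In every panel the diamond of WKY 2K1C is the highest point and that of SHRSP comes next except for RT1-DMb, where 1K1C replicate 2 lies between them; for Cd74 they are at 5.96 and 4.53.

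Leukocyte markers moved with class II on the same arrays. The 5 markers of all leukocytes, Ptprc among them, averaged 3.72 on 2K1C replicate 4 and 2.61 on SHRSP replicate 4, against -1.78 to 0.38 on the other 18 arrays. The measured B cell markers (4 of 8) averaged 1.66 and 0.42 against -4.23 to -1.0, and all 8 were above background on both arrays against 2 to 6 elsewhere. The measured T cell markers (5 of 10) averaged 1.22 and 0.49 against -4.67 to -1.71, with all 10 above background on both against 3 to 9 elsewhere. Cd3d, a gene of the T cell receptor complex, was at 3.58 and 2.38 on these arrays.

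Of the other cell types, dendritic cell markers (5 of 9 measured) averaged -0.77 and -1.32 against -4.19 to -2.06, with 7 above background on both arrays against 3 to 6. Macrophage markers averaged 1.16 and 0.75, inside the range of -0.89 to 1.36 of the other arrays, but all 13 were above background on both arrays against 10 to 12 elsewhere. Of the 11 measured, 4 were higher on both arrays than on any of the other 18, among them the lysozyme gene Lyz2 (6.30 and 5.76) and Cd68 (1.55 and 1.09). The same held for 5 of 5 T cell, 3 of 4 B cell and 2 of 5 dendritic cell markers. The B cell marker for which it did not was Pax5, the lowest of its group on both arrays (-0.48 and -0.4). Among the macrophage markers, Cd14 (0.37 and 0.36), Cd163 (-1.78 and -1.27) and Msr1 (-3.11 and -3.77) lay inside the range of the other 18 arrays. Smooth muscle markers averaged 2.96 and 3.29, inside 0.31 to 4.57, and 0 of 7 were above all other arrays. The part of these cells in the class II levels was not tested. In RNA of a whole artery, fewer cells of a type and less RNA per cell cannot be told apart.

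**Figure D4:**
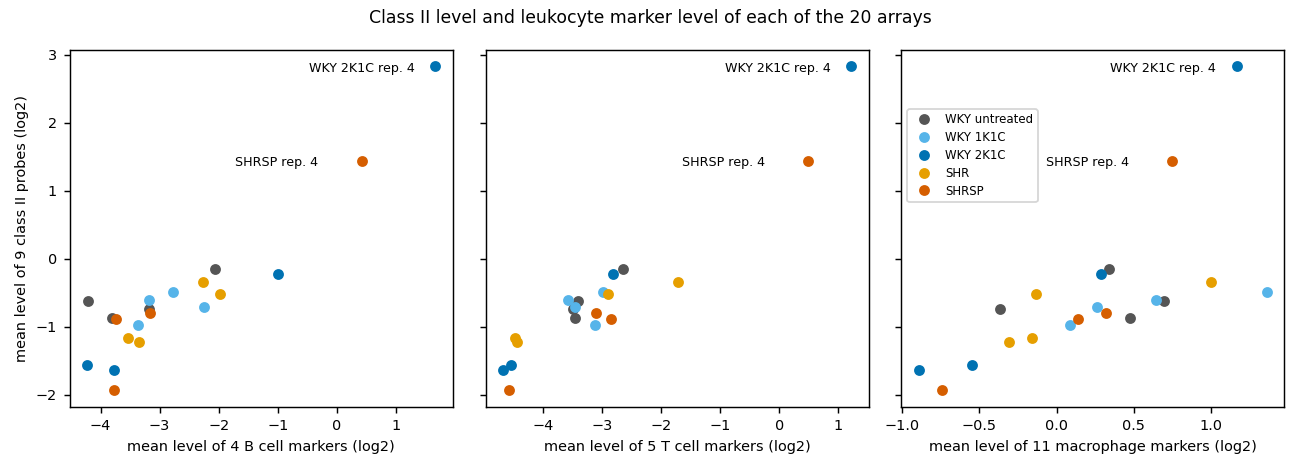
Mean level of the 9 class II, Cd74 and Ciita probes (vertical axis, log2) against the mean level of the measured B cell, T cell and macrophage markers (horizontal axes, log2), 1 point per array, coloured by group. WKY 2K1C replicate 4 (2.83) and SHRSP replicate 4 (1.44) lie above the -1.94 to -0.15 of the other 18 arrays on the class II axis, and to the right of them for B and T cell markers but not for macrophage markers.

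The design asks how the arteries of the hypertensive strains differ from untreated WKY, and how the operations act within WKY. Calls were made at a limma p under 0.05 after Benjamini-Hochberg adjustment over all 18899 kept probes. In SHR against untreated WKY 0 of the 41 members were called, where 1.72% of all kept probes were, and 1 had an unadjusted p under 0.05, where 13.9% did. Their differences ran from -0.68 to 0.62 with a median of 0.08, against a median of 0.02 over all kept probes. In SHRSP against untreated WKY 0 of 41 were called (2.4% of all kept probes) and 0 had an unadjusted p under 0.05 (16.8%), with differences from -0.62 to 0.72 and a median of 0.07. Between SHRSP and SHR, on the same slide, 0 of 41 were called (0.36%) and 0 passed unadjusted (3.61%), with differences from -0.15 to 0.54. SHR and SHRSP were each compared with the same untreated WKY arrays.

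Within WKY the counts were also 0. The 2K1C arrays lay alone on their slide, so in the comparisons of 2K1C the operation cannot be told apart from slide. In 2K1C against untreated WKY 0 of 41 members were called (0.0106% of all kept probes) and 0 passed unadjusted (21.9%), with differences from -0.49 to 1.16. In 1K1C against untreated WKY 0 of 41 were called (0%) and 0 passed unadjusted (9.03%), and in 1K1C against 2K1C 0 of 41 were called (0%) and 0 passed unadjusted (21.1%). In each of the 6 comparisons the lowest adjusted p of a member was 0.288 or more. The members passed the unadjusted threshold in smaller shares than all kept probes in each of the 6. They moved together, in part share sequence, and for class II had larger SEs, so these shares are not a result about the members.

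The intervals set how much could have been seen. The SE of a difference ran from 0.15 to 0.45 for class I probes (median 0.24) and from 0.58 to 1.06 for class II, Cd74 and Ciita (median 0.77), against a median of 0.21 over all kept probes. The 95% intervals of the class I probes in SHR against untreated WKY lay between -1.35 and 1.58, and those of the class II probes between -2.02 and 2.49. A class II difference of 2-fold between groups was therefore not detectable with these arrays, and the missed threshold does not show that the groups were alike.

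Class II differences depended on 2K1C replicate 4 and SHRSP replicate 4. These arrays were picked after all 9 class II probes were seen to be highest of their group there. Leaving them out therefore had to lower 2K1C and SHRSP for these probes, and the values without them are a description. The 9 probes moved together and are not independent of each other. With all 20 arrays, 2K1C was higher than untreated WKY for all 9 class II probes (median 0.42); without 2K1C replicate 4 and SHRSP replicate 4 it was lower for 8 of 9 (median -0.57, median SE 0.39). SHRSP was higher than untreated WKY for 4 of 9 with all arrays and for 0 of 9 without these (median -0.64), and higher than SHR for 9 of 9 and then for 1 of 9 (median 0.24 and -0.44). 1K1C was lower than 2K1C for 8 of 9 (median -0.63) and then higher for 8 of 9 (median 0.41). Again 0 of 41 members were called in any of the 6 comparisons without them, at adjusted p of 0.118 or more. Of all kept probes, 2.08% were then called in SHR and 2.15% in SHRSP against untreated WKY, 0.349% in SHRSP against SHR, 0.00529% in 1K1C against 2K1C, and, with untreated WKY as the control, 0.00529% in 2K1C and 0% in 1K1C. At an unadjusted p under 0.05, 1 of 41 members passed in SHR (15.4% of all kept probes), 1 in SHRSP (16.4%), 1 in 2K1C (18.9%) and 0 in 1K1C (9.97%), each against untreated WKY. Between SHRSP and SHR 0 passed (3.89%), and between 1K1C and 2K1C 3 passed (21.6%). The largest difference among them was RT1-DMb in 1K1C against 2K1C, at 1.07 ± 0.40 (adjusted p = 0.161 by limma).

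**Figure D5:**
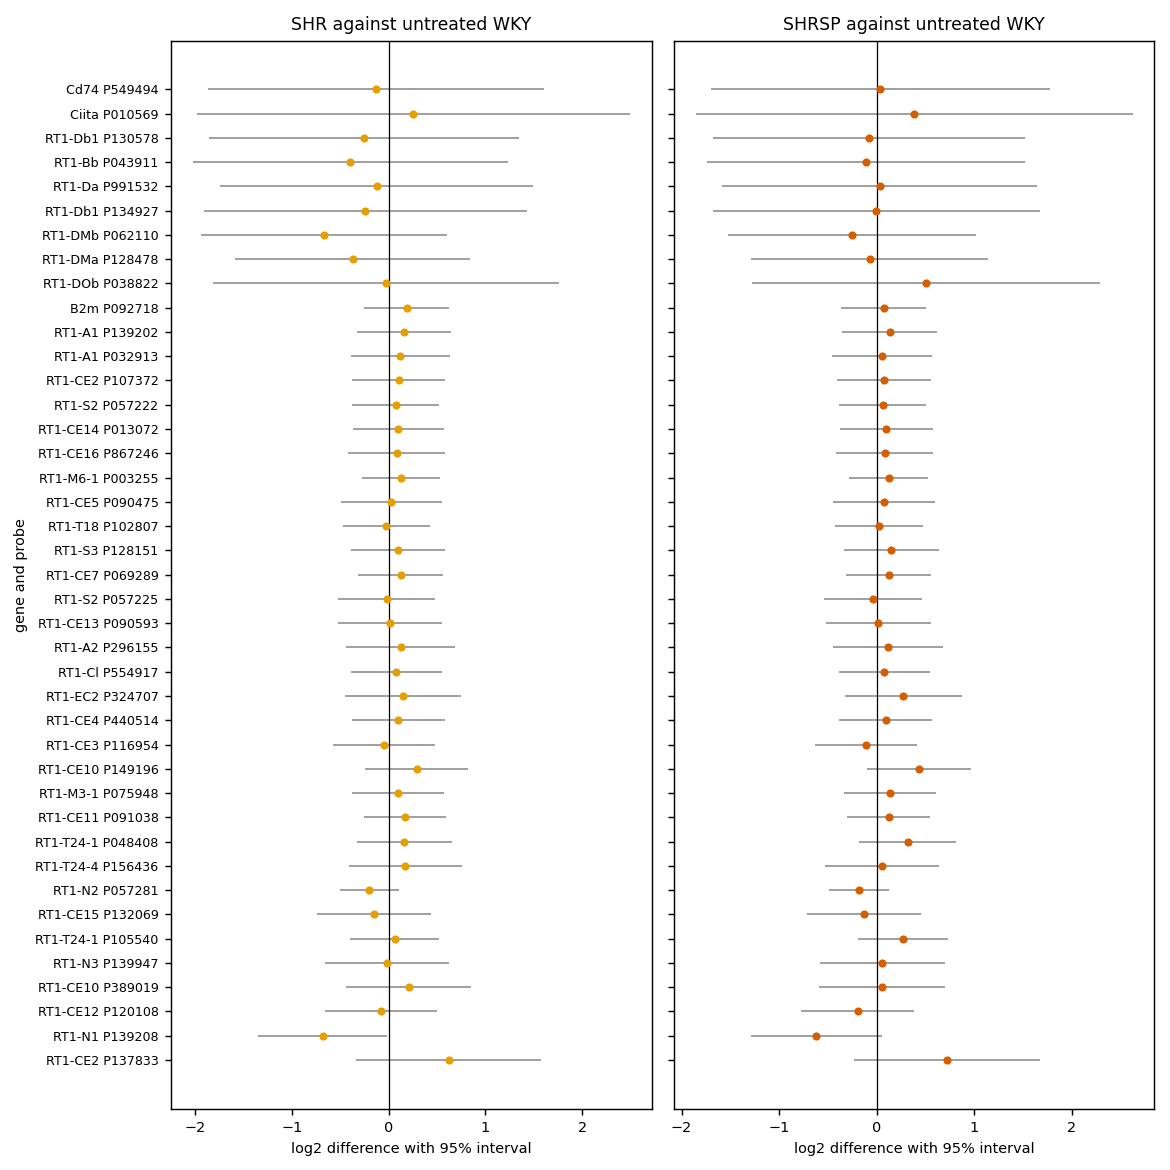
Log2 difference (points) with its 95% interval (lines) of the 41 kept probes, for SHR (left) and SHRSP (right) against untreated WKY, 4 arrays per group. Intervals of class II, Cd74 and Ciita are the widest, and RT1-N1, at -0.68 in SHR and -0.62 in SHRSP, is the lowest of the class I probes in both.

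Single probes were separated from whole genes where a gene name had more than 1 kept probe, which held for RT1-A1, RT1-CE10, RT1-CE2, RT1-Db1, RT1-S2 and RT1-T24-1 (12 probes). Each probe was set against the other probe of its gene on the same array. Both probes of a gene thus give the same test with opposite sign, and pass or fail together. With 0 probes called singly, 0 of these genes were a whole-gene shift and 0 a strain-specific single probe by the rule used. Of the 12 probes 0 were called as differing from their partner in SHR or SHRSP against untreated WKY, where 3.05% and 3.01% of the 4753 probes of such genes on the array were called. The counts were also 0 in SHRSP against SHR (0.778% over the array), in 2K1C against untreated WKY (0.442%), in 1K1C against untreated WKY (0%) and in 1K1C against 2K1C (0%). At an unadjusted p under 0.05, 4 of the 12 probes (2 genes) passed in 2K1C and 2 of them (1 gene) also in 1K1C against untreated WKY, where 20.8% and 10.1% of the 4753 probes did. In SHR and SHRSP against untreated WKY, SHRSP against SHR and 1K1C against 2K1C 0 of 12 passed, where 13.3%, 14.4%, 5.09% and 11.6% did. The 2 genes were RT1-A1 (probes 0.15 ± 0.07 apart in 2K1C, adjusted p = 0.228) and RT1-Db1 (0.30 ± 0.13 apart in 2K1C, adjusted p = 0.21, and 0.27 ± 0.13 in 1K1C, adjusted p = 0.488), by limma. The RT1-CE10 probes were the farthest apart, by 0.78 ± 0.46 in 2K1C against untreated WKY, and the RT1-S2 probes the closest, at most 0.09 apart. The other 29 gene names with a kept probe had 1 such probe, and nothing in these arrays separates the behaviour of that oligonucleotide from the level of its message.

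The lowest p among the members belonged to RT1-N1, a nonclassical class I gene whose probe lies on chromosome 20 from 2788743 to 2788802. Its levels were -2.35, -2.0, -2.23 and -1.62 in untreated WKY, -2.14, -3.15, -2.78 and -2.85 in SHR, and -2.77, -2.69, -3.08 and -2.12 in SHRSP, so that 1 array of each strain overlapped untreated WKY. The difference was -0.68 ± 0.32 in SHR (95% interval -1.35 to -0.01, unadjusted p = 0.0458 and adjusted p = 0.347 by limma) and -0.62 ± 0.32 in SHRSP (-1.28 to 0.05, adjusted p = 0.337). SHRSP and SHR differed by 0.06 ± 0.32.

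A comparison added after these values were seen set SHR and SHRSP together (8 arrays) against the 3 WKY groups together (12 arrays). There 1 of 41 members was called, RT1-N1, where 4.38% of all kept probes were, and 3 passed an unadjusted p of 0.05, where 19.6% did. RT1-N1 ranged from -3.15 to -2.12 (median -2.78) in the strains and from -2.84 to -0.95 (median -1.98) in WKY; 8 of the 12 WKY arrays lay above all 8 strain arrays. The difference was -0.74 (adjusted p = 0.0475 by limma). It was called in 9 of 29 alternative analyses and ranged from -0.84 to -0.53 over them (adjusted p 0.0138 to 0.183). Since RT1-N1 was picked for its difference in the same arrays, this value is a description. Both strains lay on a slide that held no WKY array, and therefore strain cannot be told apart from slide.

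The other members that passed unadjusted in this comparison had smaller differences. They were RT1-N2, at -0.30 (adjusted p = 0.0872 by limma), and 1 probe of RT1-T24-1, at 0.35 (adjusted p = 0.213). The other RT1-T24-1 probe differed by 0.11. The RT1-N2 probe lies close to that of RT1-N1, from 2787802 to 2787861. Other kept probes near RT1-N1 differed by 0.04 and -0.02 (RT1-S2), 0.01 (RT1-T18), 0.07 (RT1-S3) and -0.07 (RT1-T24-4). The RT1-N3 probe has 51 of 60 bases identical with that of RT1-N1, and their longest shared run is TACAGAACTCATCTAGGAT, of 19 bases (all in capitals as the shared part). RT1-N3 differed by -0.18 ± 0.20 in the comparison of both strains with the 3 WKY groups (adjusted p = 0.65 by limma), in the direction of RT1-N1. Against untreated WKY alone it differed by -0.01 ± 0.31 in SHR and 0.06 ± 0.31 in SHRSP. The accession of RT1-N1 was among the 9 of 59 without a match in the current RefSeq table, and it keeps the name given by the array.

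The promoters show what the class II members share in sequence. Class II genes carry a conserved X box and a Y box upstream of their start; Ciita does not bind DNA itself and acts through the factors on these boxes. The windows below, from RefSeq for the GRCr8 build, are 90 bases long, end 36 bases before the annotated start and are read on the gene's strand. Capitals mark AGCAAC, a core of the X box, and GATTGG, the core of the Y box.
RT1-Da: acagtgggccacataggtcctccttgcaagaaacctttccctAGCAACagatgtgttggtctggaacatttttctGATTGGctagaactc
RT1-Db1: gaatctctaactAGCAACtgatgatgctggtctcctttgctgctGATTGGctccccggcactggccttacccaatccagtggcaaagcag
RT1-DOb: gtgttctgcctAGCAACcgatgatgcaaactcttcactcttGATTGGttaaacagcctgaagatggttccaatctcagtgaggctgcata
RT1-Bb: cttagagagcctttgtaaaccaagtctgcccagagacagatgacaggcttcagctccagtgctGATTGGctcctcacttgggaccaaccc
Cd74: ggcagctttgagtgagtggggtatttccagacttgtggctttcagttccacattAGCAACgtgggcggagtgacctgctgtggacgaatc
They lie at chr20:4515290-4515379 (plus strand), chr20:4560198-4560287 (minus), chr20:4627559-4627648 (minus), chr20:4604154-4604243 (minus) and chr18:56527081-56527170 (plus).

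GATTGG, searched on both strands from 250 bases before to 50 after the start, was in 8 of the 8 class II promoters listed, each time on the gene's strand, and in 14.8% of all 33469 promoters (8.02% on the gene's strand). AGCAAC was in 5 of the 8 and in 14.7% of all promoters. In those 5 (RT1-Da, RT1-Db1, RT1-DOa, RT1-DOb and RT1-Ha) it began 30 to 33 bases upstream of GATTGG. Of the 27 class I promoters listed, 14 held GATTGG, in 2 of them on the gene's strand, and 5 held AGCAAC. The B2m promoter held GATTGG on the gene's strand and no AGCAAC, and that of Cd74 held AGCAAC and no GATTGG on either strand. Such a match is a description of letters and not a measured site. RT1-Ba and RT1-Bb, with GATTGG on the gene's strand in both promoters, are the pair whose probes differed in detection above.

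The wider antigen presentation pathway was followed through lists of genes. For class I, all 13 genes of peptide supply and loading (the transporter Tap1 and Tap2, tapasin Tapbp, immunoproteasome subunits and others) were measured, and 0 were called in any of the 6 comparisons. Their median difference was 0.06 in SHR, 0.15 in SHRSP, 0.13 in 2K1C and 0.07 in 1K1C, each against untreated WKY. On 2K1C replicate 4 and SHRSP replicate 4 these 13 averaged 1.36 and 1.07, above the 0.40 to 0.95 of the other arrays. For class II, 6 proteases and other lysosomal processing genes were measured of 9 names listed, where March1 and Marchf1 name the same gene. None was called, and their mean levels of 4.30 and 4.12 on those arrays lay inside the 3.47 to 4.54 of the others. Of the 18 listed regulators of MHC genes, among them the X box and Y box factors Rfx5 and Nfya, 14 were measured and 0 were called, with means of -0.50 and -0.72 on those arrays against -1.39 to -0.91. Of these, 5 of 13 loading genes, 1 of 6 processing genes and 4 of 14 regulators were above all other arrays on both. Nfya, at -4.22 and -4.45, lay inside the range of the other arrays. Rfx5 did so on 2K1C replicate 4 (-4.25) but was the highest on SHRSP replicate 4 (-3.08).

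Of 12 genes listed for the interferon gamma response, its own gene Ifng among them, 8 were measured. Of these, 1 was called lower in SHR and in SHRSP against untreated WKY and 0 elsewhere. It was Cxcl9, the chemokine that attracts activated T cells, at -1.52, -1.09, -1.71 and -1.29 in untreated WKY, -1.77, -2.92, -2.64 and -2.90 in SHR and -2.47, -2.61, -3.48 and -2.55 in SHRSP. Each strain array lay below all untreated WKY arrays, the closest being -1.77 in SHR and -1.71 in untreated WKY. The 2K1C arrays, at -2.40, -1.68, -1.79 and -1.89, overlapped those of SHR, and the 1K1C arrays were at -1.19, -0.83, -1.07 and -1.25. Cxcl9 was lower by 1.16 ± 0.26 in SHR (adjusted p = 0.0304 by limma) and by 1.38 ± 0.26 in SHRSP (adjusted p = 0.00718). The strains and untreated WKY lay on different slides, so strain cannot be told apart from slide. The SHR call was lost without SHR replicates 2, 3 or 4 or WKY replicate 2 of the untreated group (adjusted p at most 0.11), and both calls were lost in a fit of the 2 groups alone and with unscaled values (adjusted p up to 0.169 in SHR and 0.0861 in SHRSP). The list's median difference was -0.01 in SHR and 0.28 in SHRSP, and this list shares some genes with that of the regulators.

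Of 8 genes for class I-like molecules outside RT1, 6 were measured. Micb, a gene named for a stress-induced ligand of natural killer cells, was called lower in SHRSP. Its levels were -3.58, -3.42, -3.60 and -3.20 in untreated WKY, -3.20, -3.06, -3.02 and -3.02 in SHR and -6.12, -6.84, -6.05 and -7.36 in SHRSP, where 0 of 4 arrays had it above background. Against untreated WKY its signal was lower by a factor of at least 5.23 (adjusted p = 2.56e-07 by limma), and against SHR by at least 6.80 (adjusted p = 9.64e-08), taking for each SHRSP array the higher of the probe's own signal and the lowest signal of a probe well above background. It was called in all 17 and all 18 alternative analyses of these differences, and 1 probe stands for it. Among the cell type lists, 1 macrophage marker was called, the scavenger receptor Msr1, lower by -0.94 ± 0.19 in SHRSP against SHR (adjusted p = 0.0421); the call was lost without any single array of the 8. The lists of B cell, T cell, dendritic cell, all-leukocyte, endothelial and smooth muscle markers had 0 called members in the 6 comparisons.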

How the data were processed

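Each array was a 1-colour scanner file of Cy3 intensity; per the submitters' processing notes the software was Agilent Feature Extraction 10.7.3.1. Per the file headers, the processed intensity was made with spatial detrending on and the background correction setting off. The deposited value table held the same intensity, with a largest relative difference of 0. Its values were linear and not scaled. Arrays were grouped by their titles.

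The main value was log2 of the processed intensity less the 75th percentile of all non-control spots on that array, with the 4259 control spots and 301 to 684 outlier spots per array left out and the spots of a probe averaged. A probe was well above background on an array where most of its spots were. The 5 groups were fitted together in R 4.3.3 with limma 3.58.1 (lmFit, eBayes; prior of 2.62 degrees of freedom), two-sided, for 6 comparisons. The deviation of a probe from its gene's other probes was fitted the same way. The script was tested on simulated data. The number of arrays limits the precision, and p-values measure the spread between the samples labelled as biological replicates.

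Replicate numbers were not used to pair the samples. The median correlation of deviations between same-numbered arrays was -0.08 to 0.06. Single pairs ran from -0.56 to 0.63, the highest being among arrays numbered 4. Members, lists and tests were chosen with earlier results of these data known. Values were given, by array in the groups the text describes or else as group means or ranges, for B2m, Cd74, Ciita, class II and classical class I genes, the member with the lowest p, and called list members; lists took each gene's brightest kept probe. RT1-N1, RT1-CE5 and the pair of arrays were singled out after their values were seen. Alternatives were quantile normalization, array median scaling, normexp with an offset of 50, unscaled deposited values, no filter, all 20 arrays above background (16429 probes), outlier spots kept, 2 groups alone, replicate or slide blocks, and each array left out.

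Of the 59 accessions 50 matched a symbol in the RefSeq table, each the array's own name; 5 probes had no rn4 position. Promoters came from RefSeq for 37 of the 47 genes.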

Additional observations from a re-analysis of the deposited data

Results flagged for a closer look

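In each group of 4 arrays, the highest and lowest level of each of the 41 kept probes was compared with the nearest other array by Dixon's ratio; 19 of 205 probe and group pairs passed its 95% critical value, which chance gives in about 1 of 20, and the probes are not independent of each other. On SHR replicate 1, 10 class I levels stood above the rest of SHR. They were both RT1-A1 probes at 5.14 and 6.36, RT1-A2 at 2.31, RT1-CE11 at 1.06, RT1-CE14 at 3.91, RT1-CE7 at 3.06, RT1-M6-1 at 3.74, RT1-S2 at 2.57, RT1-S3 at 3.36 and RT1-T24-4 at 0.80. On SHRSP replicate 4, 6 levels stood above the rest of SHRSP. They were RT1-A1 at 4.61, RT1-CE14 at 3.46, RT1-CE5 at 3.22, RT1-M3-1 at 0.73, RT1-S3 at 2.90 and the class II gene RT1-DOb at -2.05. On 2K1C replicate 3 1 of the RT1-CE10 probes was at -1.32 against -2.55 to -2.39 on the other 2K1C arrays. On untreated WKY replicate 1, RT1-CE12 was low at -2.36 and RT1-CE13 at 0.93.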

How the results depend on the processing

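The count of called members was 0 in all 110 alternatives of the 6 comparisons, including the replicate block (0 in each) and leaving out each array in turn (0 to 0), with lowest adjusted p from 0.118 to 1.00. Slide as a block could be fitted only within a slide, where it restates the same fit. The count of probes called against their partner was 0 in all 25 alternatives (lowest adjusted p 0.0782). In SHR and SHRSP against the 3 WKY groups the 1 called member became 0 with unscaled values, without the filter, with normexp, with quantile normalization and with array median scaling, and 0 to 2 when each array was left out (2 without SHR replicate 1, where RT1-N2 was called too); with the replicate block it stayed 1. Of 3178 values of named single probes, 0 were called and 372 had the other sign than in the reported fit, up to a reported size of 0.79. The median difference of all kept probes against untreated WKY was 0.18 in 1K1C and 0.12 in SHR with array median scaling, and -0.19 in 2K1C and 0.17 in SHRSP with unscaled values. Dim probes and 4 arrays per group limit what could be seen.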

Other observations

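Some RT1 probes that were dim in most rats were at their highest on the pair of arrays with the highest class II levels. The probe of RT1-M2, not kept, was at -3.27 on 2K1C replicate 4 and -4.29 on SHRSP replicate 4, against -8.38 to -5.51 on the other 18 arrays. The 2nd probe of RT1-CE5, not kept either, was at -2.86 and -3.42 against -8.09 to -5.54, while the kept RT1-CE5 probe was at 1.92 and 3.22 on these arrays. RT1-Ha, a class II gene, was at -3.61 and -4.92 against -8.24 to -5.99. These were chosen after their values were seen.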
